A study of Rattus norvegicus with 12 samples.

Results

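Transcripts of 10 genes that cross-link or build elastic fibres were followed across the 12 rat muscle libraries of the series. They comprised the 5 lysyl oxidases Lox, Loxl1, Loxl2, Loxl3 and Loxl4 and the 5 microfibril and elastic fibre genes Fbn1, Eln, Fbln5, Emilin1 and Mfap5. Members were listed by symbol, with earlier results of these data known. Each matched 1 row of the 24648 rows of the counts table, and all 10 were among the 14225 genes that passed the filter on low counts. Every library came from skeletal muscle of male rats aged 540 days. The control groups were offspring of dams on a control diet, and the restriction groups were offspring of dams given a diet of 6% protein through gestation and lactation. The restriction was applied to the dams, and strain, dam and litter are not named for any library in the labels. Title numbers split the libraries into set 1, with controls 3, 8 and 9 and restriction libraries 12, 13 and 15, and set 2, with controls 23, 28 and 29 and restriction libraries 32, 33 and 35. Soleus and extensor digitorum longus were the muscles taken, but no label gives the muscle of a single library, and the sets therefore keep their numbers here. Separate animals are nowhere stated for the libraries of a group. The p-values thus measure the spread from library to library, part of which may be technical, and set 1 and set 2 may share animals.

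Lysyl oxidases are secreted, copper-dependent enzymes that oxidise lysine side chains of collagen and tropoelastin, and the resulting aldehydes form the covalent cross-links that make both proteins insoluble. An elastic fibre is a core of cross-linked elastin laid down on a scaffold of fibrillin microfibrils, with fibulins and EMILIN-1 at the interface between them. In skeletal muscle these proteins lie in the connective tissue sheaths, the vessel walls and the tendon ends, where they store and return energy on stretch.

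The libraries held between 22829692 and 38313704 counts. Markers of the muscle fibre showed the labelled tissue in every library, where 8 of them summed to between 111954 and 161519 CPM (read counts scaled to library size). Slow-fibre markers summed to between 82448 and 96553 CPM in set 1 and to between 1497 and 4904 CPM in set 2, while fast-fibre markers ran from 1650 to 5675 CPM in set 1 and from 98291 to 128681 CPM in set 2. Control 23 stood apart from the other libraries on the second principal component, at 88 against values from -23.7 to 19.6. It held the lowest CPM of all 12 libraries for Lox, Loxl2, Loxl3, Loxl4 and Emilin1, and within set 2 the highest for Fbln5 and Fbn1. Results are therefore also given without it where a call changed. Changes of sign lie within the ranges given for the fits that left out 1 library.

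Promoter windows show the DNA at the annotated start of members that were lower in set 2 in both diets (Loxl1, Fbn1 and Mfap5). The window of a lysyl oxidase that was not called (Loxl3) is printed too. The RefSeq table of promoters, on build GRCr8, held 6 of the 10 members: Loxl1, Loxl3, Loxl4, Fbn1, Fbln5 and Mfap5. Lox, Loxl2, Eln and Emilin1 were not among its entries. Each window of 300 bases is printed 5′ to 3′ on the strand of the gene and ends shortly after the annotated start, with motif matches in capitals. The Fbn1 window reads ATG from its annotated start on, so that start may be the start of the coding sequence. Whether the bases before it hold the Fbn1 promoter was not tested. Matching was by gene symbol, since the counts rest on another build, Rnor_6.0.
Loxl1, chr8:67612175-67612474, - strand: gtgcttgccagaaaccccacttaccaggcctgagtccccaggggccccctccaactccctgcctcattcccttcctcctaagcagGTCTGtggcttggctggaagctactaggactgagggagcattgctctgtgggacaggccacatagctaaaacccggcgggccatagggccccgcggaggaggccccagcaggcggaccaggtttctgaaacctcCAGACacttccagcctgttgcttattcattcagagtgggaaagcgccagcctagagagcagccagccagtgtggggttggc
Fbn1, chr3:133203341-133203640, - strand: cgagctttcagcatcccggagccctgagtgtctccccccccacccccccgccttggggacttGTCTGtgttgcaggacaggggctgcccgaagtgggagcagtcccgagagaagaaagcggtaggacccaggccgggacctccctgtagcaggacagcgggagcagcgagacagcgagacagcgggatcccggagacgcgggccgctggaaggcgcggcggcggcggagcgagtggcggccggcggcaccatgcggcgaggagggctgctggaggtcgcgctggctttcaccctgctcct
Mfap5, chr4:157399669-157399968, + strand: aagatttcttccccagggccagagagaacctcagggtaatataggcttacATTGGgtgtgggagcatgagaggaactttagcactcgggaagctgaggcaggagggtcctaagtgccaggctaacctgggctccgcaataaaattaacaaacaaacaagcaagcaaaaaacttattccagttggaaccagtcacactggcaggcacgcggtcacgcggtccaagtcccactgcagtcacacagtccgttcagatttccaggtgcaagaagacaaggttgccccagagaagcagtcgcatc
Loxl3, chr4:117098108-117098407, + strand: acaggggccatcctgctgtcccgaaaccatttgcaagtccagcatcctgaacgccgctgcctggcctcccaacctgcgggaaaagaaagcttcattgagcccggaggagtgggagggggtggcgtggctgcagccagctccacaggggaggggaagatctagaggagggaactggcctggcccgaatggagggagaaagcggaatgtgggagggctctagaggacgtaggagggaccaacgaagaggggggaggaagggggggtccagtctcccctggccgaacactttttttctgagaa

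Motifs were searched on both strands of these windows. CAGAC, the core letters of a SMAD element, was found in 4 of the 6 members' windows, those of Loxl1, Loxl4, Fbn1 and Fbln5, and in 50.1% of all 33469 promoter windows in the table. In the Loxl1 window it occurred 2 times, beginning at base -165 on the reverse strand and at base -31 on the forward strand relative to the start site. CCAAT was found in 3 of the 6 (Loxl4, Fbln5 and Mfap5) and in 37.5% of all windows, and in Fbln5 its matches on the 2 strands overlapped. GGGCGG, a GC box, was found in 2 of the 6 (Loxl4 and Fbln5) against 33.1%. None of the 6 windows held TATAAA (14.2% of all windows), the AP-1 letters TGANTCA (7.33%) or a CArG box (1.64%). The Loxl3 window held no match to any of these motifs. A match is a run of letters and not a measured binding site.

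The sets were compared first, as the mean over both diets. Of the 10 members, 5 were lower in set 2 than in set 1 and 0 were higher at an adjusted p under 0.05 in edgeR's quasi-likelihood test, against a background of 19.6% of all tested genes called lower, 19.9% called higher and 39.5% called in either direction. Those that fell were Loxl1, Fbn1, Eln, Mfap5 and Loxl4. Lox, Loxl2, Loxl3, Fbln5 and Emilin1 were not called. The median log2 fold change, given throughout as set 2 minus set 1, was -0.65 over the 10 members and -0.01 over all tested genes. The 6 libraries of set 2 all lay below the 6 of set 1 for 4 members, Loxl1, Fbn1, Eln and Mfap5, against 9.77% of all genes apart in that direction. Together the 10 genes took between 0.0184% and 0.029% of the counts of a set 1 library and between 0.00792% and 0.0112% of a set 2 library.

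**Figure D1:**
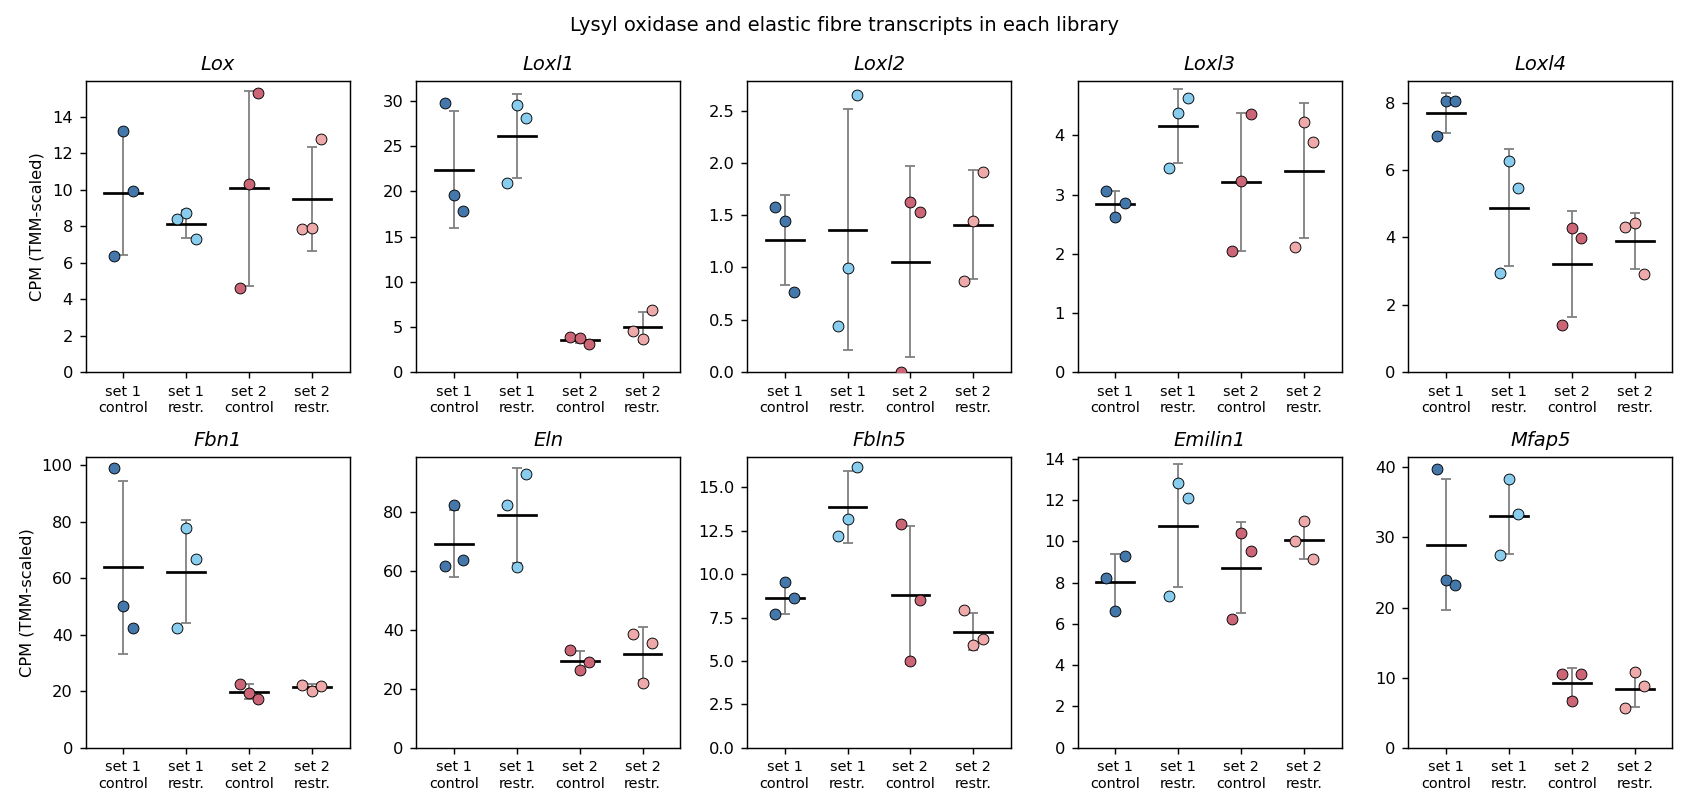
Level of each member in each library, in CPM scaled by TMM (vertical axes start at 0 and differ between panels), for the 4 groups of 3 libraries. Points are libraries, black lines are group means and grey bars are ± SD, and Loxl1, Fbn1, Eln and Mfap5 show no overlap between set 1 (blue) and set 2 (red).

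Loxl1, the lysyl oxidase known for acting on elastin and for binding fibulin-5, had the largest difference between the sets among the members. It measured 29.8, 19.6 and 17.8 CPM in set 1 controls 3, 8 and 9, and 20.9, 29.6 and 28.1 CPM in restriction libraries 12, 13 and 15. In set 2 it measured 3.86, 3.79 and 3.13 CPM in controls 23, 28 and 29, and 4.6, 3.63 and 6.84 CPM in restriction libraries 32, 33 and 35. The lowest library of set 1 thus lay above the highest of set 2, and control 23 was close to the other set 2 controls. Loxl1 fell 5.7-fold in set 2, a log2 fold change of -2.51 ± 0.19 (SE, adjusted p = 2.6e-07). The change was -2.64 ± 0.27 between the controls (adjusted p = 1.4e-05) and -2.38 ± 0.27 between the restriction groups (adjusted p = 2.7e-05).

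The other lysyl oxidases did not show a drop of this size. Lox, the founding enzyme of the family, ranged from 6.38 to 13.2 CPM with a median of 8.54 in set 1, and from 4.61 to 15.3 CPM with a median of 9.1 in set 2. The 2 ranges overlapped across most of their width, with control 23 lowest and control 29 highest. The log2 fold change of Lox was 0.13 ± 0.26, with a 95% interval from -0.43 to 0.69, which does not reach the fall of Loxl1. Loxl3, which takes part in the fibronectin matrix of muscle attachments, ranged from 2.62 to 4.64 CPM (median 3.25) in set 1 and from 2.04 to 4.37 CPM (median 3.56) in set 2. These ranges overlapped almost wholly, with a change of -0.05 ± 0.25 (interval -0.58 to 0.48).

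Loxl2, best known for cross-linking basement membrane collagen IV, was the member with the fewest reads. Its counts ran from 11 to 65 in 11 libraries and were 0 in control 23, which at that depth allows up to 0.161 CPM (3 counts, counting error only). Set 1 ranged from 0.436 to 2.65 CPM with a median of 1.22, and set 2 from 0 to 1.91 CPM with a median of 1.49. The log2 fold change was -0.09 ± 0.63 with an interval from -1.43 to 1.26, which takes in the values of Fbln5, Loxl4 and Eln. Libraries of the same group varied widely, with coefficients of variation of 34.4% to 86.7%. Without control 23 the change was 0.18 ± 0.45.

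Loxl4, a lysyl oxidase with the same scavenger receptor repeats as Loxl2 and Loxl3, separated the sets in the controls. It measured 7.02, 8.05 and 8.04 CPM in set 1 controls 3, 8 and 9 and 1.39, 4.27 and 3.97 CPM in set 2 controls 23, 28 and 29. In the restriction groups it measured 2.94, 6.26 and 5.45 CPM in set 1 and 4.3, 4.42 and 2.92 CPM in set 2. Controls did not overlap, whereas restriction library 12 of set 1 lay among the set 2 libraries. The change was -0.79 ± 0.27 over both diets (adjusted p = 0.031), -1.25 ± 0.39 in the controls (adjusted p = 0.034) and -0.33 ± 0.38 in the restriction groups (adjusted p = 0.55). The difference between those last 2 values, tested as an interaction, was 0.92 ± 0.54 and did not pass (adjusted p = 0.61). Loxl4 lost its call over both diets when any of control 8, control 9, restriction 13, restriction 15 or restriction 35 was left out (adjusted p between 0.061 and 0.09), and its call in the controls when any of controls 3, 8, 9 or 23 was (adjusted p between 0.056 and 0.086).

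Among the structural genes, Fbn1 encodes fibrillin-1, the main protein of the microfibril. It measured 98.9, 50.2 and 42.4 CPM in set 1 controls 3, 8 and 9 and 42.2, 77.8 and 66.8 CPM in restriction libraries 12, 13 and 15. All 6 libraries of set 2 lay in a narrow range, at 22.6, 19.3 and 17.4 CPM in controls 23, 28 and 29 and 22.2, 20 and 21.9 CPM in restriction libraries 32, 33 and 35. Set 1 was thus both higher and wider, with control 3 the highest, and the sets did not overlap. Fbn1 fell 3.07-fold in set 2, a log2 change of -1.62 ± 0.20 (adjusted p = 2.8e-05), with -1.69 ± 0.29 in the controls (adjusted p = 0.00086) and -1.54 ± 0.29 in the restriction groups (adjusted p = 0.0013).

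Mfap5, a small glycoprotein bound to microfibrils, had the second largest difference among the members. In set 1 it measured 39.8, 23.9 and 23.2 CPM in controls 3, 8 and 9 and 27.5, 38.3 and 33.4 CPM in restriction libraries 12, 13 and 15. In set 2 it measured 10.5, 6.72 and 10.5 CPM in controls 23, 28 and 29 and 5.6, 10.8 and 8.85 CPM in restriction libraries 32, 33 and 35. No set 2 library came near the lowest set 1 value of 23.2 CPM. The fall was 3.51-fold, a log2 change of -1.81 ± 0.20 (adjusted p = 8.3e-06).

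Eln encodes tropoelastin, the monomer of the elastic core. Its values in set 1 were 61.6, 82.4 and 63.8 CPM in controls 3, 8 and 9 and 82.5, 61.3 and 93.0 CPM in restriction libraries 12, 13 and 15. Those in set 2 were 33.1, 26.3 and 29.1 CPM in controls 23, 28 and 29 and 38.6, 21.8 and 35.4 CPM in restriction libraries 32, 33 and 35. The lowest set 1 library, restriction 13, lay above the highest of set 2, restriction 32. Eln fell 2.41-fold in set 2, a log2 change of -1.27 ± 0.16 (adjusted p = 2.3e-05), and the change was -1.23 ± 0.22 in the controls and -1.31 ± 0.22 in the restriction groups.

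Fbln5 encodes fibulin-5, which brings tropoelastin and lysyl oxidases to the microfibril. It measured 7.73, 9.53 and 8.62 CPM in set 1 controls 3, 8 and 9 against 12.9, 4.97 and 8.5 CPM in set 2 controls 23, 28 and 29. In the restriction libraries it measured 12.2, 13.2 and 16.2 CPM in set 1 and 7.92, 5.93 and 6.24 CPM in set 2. Control 23 lay above all 3 set 1 controls, while the restriction groups did not overlap. The set difference was 0.02 ± 0.28 in the controls, -1.05 ± 0.29 in the restriction groups (adjusted p = 0.014) and -0.51 ± 0.20 over both (adjusted p = 0.057). Without control 23, Fbln5 fell in set 2 over both diets (-0.71 ± 0.17, adjusted p = 0.0041) and was at -0.36 ± 0.25 in the controls. The call in the restriction groups was lost without restriction 15 (adjusted p = 0.059) or restriction 33 (adjusted p = 0.053).

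Emilin1 encodes EMILIN-1, a glycoprotein between the elastin core and the microfibrils that also restrains TGF-beta processing. It ranged from 6.61 to 12.8 CPM with a median of 8.74 in set 1 and from 6.22 to 11 CPM with a median of 9.79 in set 2. The difference was 0.01 ± 0.18 with an interval from -0.37 to 0.40, and its sign turned with the scaling (-0.09 with library size alone).

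**Figure D2:**
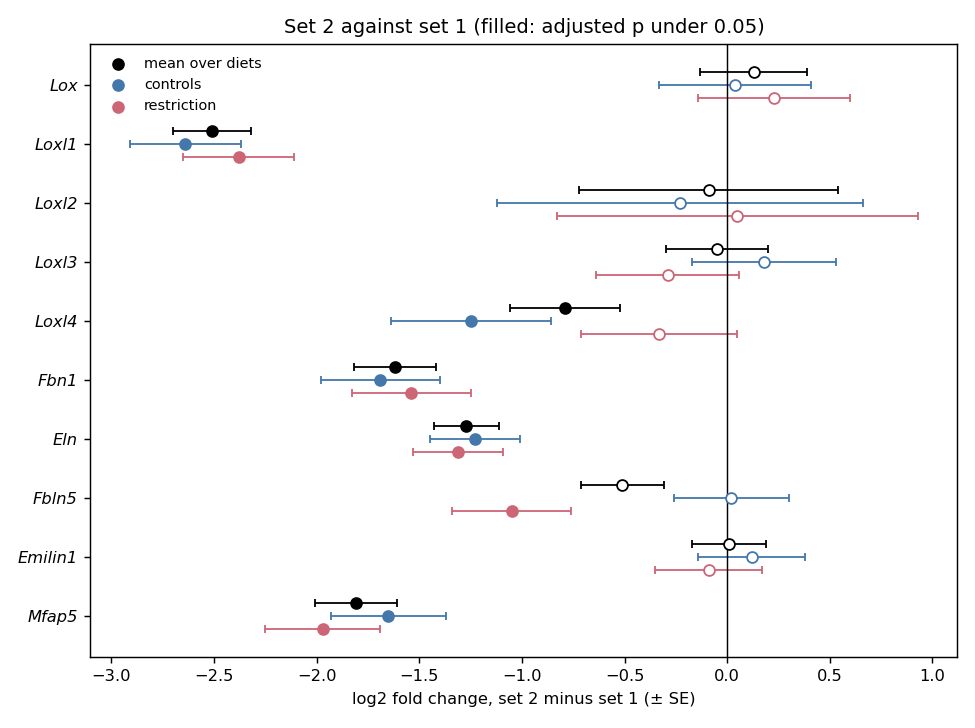
Log2 fold change of set 2 minus set 1 for each member (horizontal axis, bars are ± SE) over both diets, in the controls and in the restriction groups. Filled points have an adjusted p under 0.05 in edgeR's quasi-likelihood test, and Loxl1, Fbn1, Eln and Mfap5 are filled in all 3 comparisons.

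Within single diets, 5 members were lower in set 2 in the controls (background 10.4% of genes lower) and 5 in the restriction groups (background 15% lower). Loxl1, Fbn1, Eln and Mfap5 were the 4 members called in both. Non-overlapping groups with set 2 lower were found for 5 members in the controls, against 18.1% of all genes, and for 5 in the restriction groups, against 24.6%. Loxl1, Fbn1, Eln and Mfap5 kept their calls in all 12 fits that left out 1 library and under all other settings tried.

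Ratios of 2 members within the same library do not depend on scaling, and were compared between sets by a two-sided exact permutation test over the 6 and 6 libraries. All 45 pairs were tested, after the values above were known, with 0.5 added to each count. After Benjamini-Hochberg adjustment over the pairs 21 passed. The smallest p this test can give is 0.0022, since it exchanged the 12 libraries freely and took them as independent, which the labels do not settle. The log2 ratio of Lox to Loxl1 counts was -1.44 ± 0.65 (SD, n = 6) in set 1 and 1.13 ± 0.69 (SD, n = 6) in set 2 (exact p = 0.0022, adjusted p = 0.0097). Loxl1 counts were thus the larger of the pair in all 6 set 1 libraries (log2 ratio -2.22 to -0.57) and the smaller in all 6 set 2 libraries (0.25 to 2.28).

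Loxl1 also fell further than Eln and Fbn1. The log2 ratio of Loxl1 to Eln counts moved from -1.62 ± 0.46 (SD, n = 6) to -2.85 ± 0.33 (SD, n = 6; exact p = 0.0022, adjusted p = 0.0097). Against Fbn1 it moved from -1.33 ± 0.24 to -2.29 ± 0.32 (SD, n = 6 each; exact p = 0.0043, adjusted p = 0.015). Against Mfap5 the ratio moved from -0.35 ± 0.07 to -1.04 ± 0.63 and did not pass (SD, n = 6 each; exact p = 0.041, adjusted p = 0.084). Of the 10 pairs among the 5 members that fell, 3 changed ratio, those of Loxl1 with Fbn1, Eln and Loxl4. Of the 25 pairs of 1 member that fell and 1 that was not called, 18 passed, and of the 10 pairs among members not called, 0 passed. That grouping uses the set difference itself and so describes the pairs rather than testing them.

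These are bulk libraries, in which fewer cells of a type and less RNA per cell cannot be told apart. Counts of markers called stand against 19.6% of all tested genes lower and 19.9% higher in set 2. Fibroblast markers moved in the direction of the members that fell: 7 of 9 tested markers were lower in set 2 and 0 higher, with a median of -0.88, and the 10 markers summed to between 1049 and 1404 CPM in set 1 and between 418 and 805 CPM in set 2. Macrophage markers did so too, with 9 of 10 lower, a median of -1.7 and sums of 231 to 565 against 63 to 134 CPM. So did adipocyte markers, with 5 of 6 lower, a median of -2.85 and sums of 197 to 285 against 126 to 259 CPM. Most of the adipocyte sum was Fabp4, at 191 and 184 CPM in the controls of set 1 and set 2 (-0.06 ± 0.22). Gsn likewise made up most of the fibroblast sum, at 914 and 434 CPM in those controls (-1.07 ± 0.25). Smooth muscle markers summed to between 450 and 599 CPM in set 1 and between 359 and 505 CPM in set 2, with 3 higher and 6 lower of 12. Endothelial markers went the other way, with 5 of 10 higher and 1 lower (315 to 427 against 388 to 490 CPM), and tenocyte and Schwann cell markers were mixed, with 2 higher and 2 lower of 9 and 3 higher and 2 lower of 7. No marker gene had a count of 0 across all 12 libraries, and single groups were not checked. The part of these cell types in the falls of Loxl1, Fbn1, Eln, Mfap5 and Loxl4 was not tested.

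Other genes of the pathway were read from lists of partners, activators, substrates and degrading enzymes. For every list, the counts stand against 19.6% of all tested genes lower and 19.9% higher in set 2. Among 20 tested partners in the microfibril and elastic fibre, 12 were lower in set 2, 3 were higher and the median was -0.82. Those that fell with the smallest p were Fbln2 (fibulin-2) at -1.33 ± 0.13, the microfibril-binding Adamtsl4 at -1.35 ± 0.13, the microfibril-associated Ltbp2 at -3.12 ± 0.33 and Ltbp4, which is needed for elastic fibre assembly, at -0.95 ± 0.13. Ltbp2 had few reads in set 2, with means of 0.415 CPM in controls and 0.341 CPM in restriction libraries. Efemp2 (fibulin-4), which brings Lox to elastin and is named outside the rule after its value was seen, was at 0.03 ± 0.19, close to the value of Lox. The genes Ltbp1, Ltbp3 and Mmrn2 rose in set 2. Fbn2 and Mfap4 did not pass the filter.

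Among 11 tested genes of lysyl oxidase activation and copper delivery, 7 fell in set 2 and 0 rose (median -0.51). Among those that fell were Postn (periostin, which supports proteolytic activation of lysyl oxidase) at -2.05 ± 0.30, Fn1 (fibronectin) at -0.93 ± 0.22, the procollagen N-proteinase Adamts2 at -0.61 ± 0.17 and the proteinase enhancer Pcolce at -0.68 ± 0.19. Of the collagen substrates 5 of 10 fell and 0 rose (median -0.37), with Col3a1 at -1.36 ± 0.28, Col1a1 at -0.80 ± 0.26, Col5a1 at -0.76 ± 0.14 and Col5a2 at -0.74 ± 0.19. Among 14 tested collagen-processing genes 7 fell and 2 rose (median -0.29). Plod2, which hydroxylates telopeptide lysines for cross-linking, fell with a log2 change of -1.23 ± 0.14, as did the prolyl hydroxylases P4ha3 (-2.24 ± 0.49) and P3h2 (-1.32 ± 0.31), while P4ha1 rose (0.64 ± 0.16). P4ha3 had few reads in set 2, with means of 0.237 CPM in controls and 0.533 CPM in restriction libraries.

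Of 8 tested genes of elastin degradation and its inhibitors, 5 fell and 1 rose (median -0.53). The elastin-degrading cathepsins Ctss (-1.78 ± 0.23) and Ctsk (-1.12 ± 0.25) and the gelatinase Mmp2 (-0.68 ± 0.12) fell, and so did the metalloproteinase inhibitor Timp1 (-3.03 ± 0.39). The TGF-beta axis, a known inducer of lysyl oxidases, had 4 of 10 genes higher and 2 lower (median 0.06). Of all tested genes 19.9% were higher and 19.6% lower. The signal transducer Smad3 (1.66 ± 0.17) and the co-receptor Tgfbr3 (1.55 ± 0.29) rose, while the ligand Tgfb1 (-0.96 ± 0.16) fell.

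**Figure D3:**
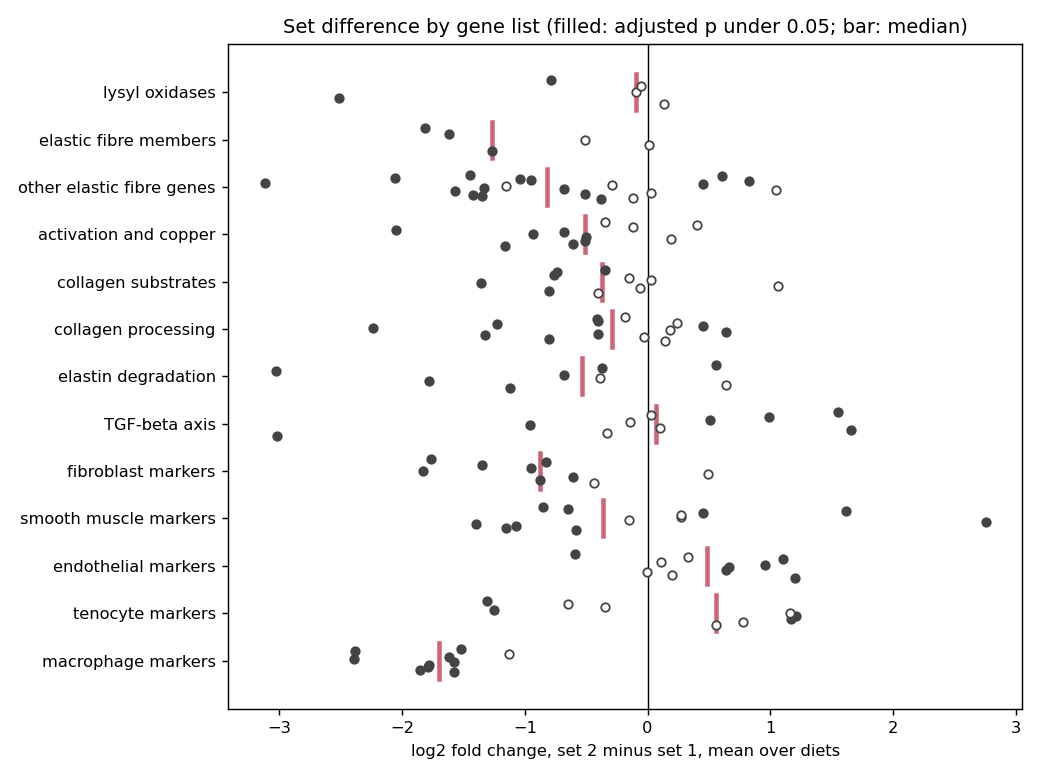
Log2 fold change of set 2 minus set 1, mean over diets, for every tested gene (points, spread vertically to be seen) of the member, pathway and marker lists, with list medians as red bars. Filled points have an adjusted p under 0.05 in edgeR's quasi-likelihood test, and the elastic fibre members have a median of -1.27, the lysyl oxidases of -0.09 and fibroblast markers of -0.88.

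Maternal protein restriction was the other comparison. None of the 10 members changed over the mean of both sets, where 0.00703% of tested genes (1 gene) passed. Log2 fold changes, as restriction minus control, ran from -0.20 for Loxl4 to 0.36 for Loxl1, with 8 members above 0 and a median of 0.15 against -0.01 over all genes. No member reached an unadjusted p under 0.05 in edgeR's test, as 7.83% of genes did, and 0 members were called by DESeq2 or limma-voom, which called 46 and 0 genes. The 95% intervals give the sizes that remain possible: -0.04 to 0.75 for Loxl1 (0.36 ± 0.18, adjusted p = 0.67), -0.18 to 0.48 for Eln (0.15 ± 0.15), -0.39 to 0.47 for Fbn1 (0.04 ± 0.20) and -0.39 to 0.45 for Mfap5 (0.03 ± 0.19). For these 4 members each interval lay nearer 0 than the set difference of the same gene. For Lox the diet change was -0.18 ± 0.26 (interval -0.74 to 0.37) and for Loxl2 0.25 ± 0.63 (interval -1.10 to 1.60).

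In set 1 alone 0 members were called, where 0.00703% of genes passed, and 1 member, Fbln5, had an unadjusted p under 0.05, as did 7.54% of all genes. Fbln5 in the restriction libraries, at 12.2 CPM or more, lay above every control, at 9.53 CPM or less. The change was 0.68 ± 0.28 (adjusted p = 0.60, edgeR's quasi-likelihood test). Loxl3 did not overlap either, with 3.06, 2.62 and 2.86 CPM in the controls and 3.45, 4.38 and 4.64 CPM in the restriction libraries (0.55 ± 0.35, adjusted p = 0.73). Loxl4 did not overlap in the other direction, with every restriction library below every control (-0.66 ± 0.38, adjusted p = 0.70).

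Groups apart were thus 2 members higher and 1 lower of 10 in set 1, against 7.97% and 9.6% of all genes. Total counts also kept apart in set 1, at 26506707 or more in the controls and 26037169 or less in the restriction libraries, as did the summed fast-fibre markers (1650 to 3535 CPM against 4511 to 5675 CPM) and adipocyte markers (246 to 285 CPM against 197 to 206 CPM). The single fast-fibre markers were mixed, with 4 of 7 above 0 and 0 called. Tnnt3 (1.02 ± 0.31), Tnni2 (1.02 ± 0.28) and Tnnc2 (0.71 ± 0.21) made up most of the sum, while Myh4 was at -3.47 ± 1.06 (140 CPM in controls and 12.7 CPM in restriction libraries). All 6 adipocyte markers lay below 0 and 0 were called. The part of depth and of these cell types in the values of Fbln5, Loxl3 and Loxl4 was not tested. The remaining members in set 1 ran from -0.28 (Lox) to 0.42 (Emilin1).

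In set 2, 0 members were called, as was 0% of all genes, and 0 members had groups apart, against 12.7% of all genes. Fbln5 in the restriction libraries lay within the range of the controls, with a change of -0.39 ± 0.29 that was -0.01 ± 0.25 without control 23. Loxl1 was at 0.49 ± 0.27 (adjusted p = 0.61), with restriction 35 the highest of set 2. The other 8 ranged from -0.13 (Mfap5) to 0.39 (Loxl2). In edgeR's test of set 2 at an unadjusted p under 0.05 no member passed and 8.59% of genes (1222) did, and DESeq2 called 39 genes and limma-voom 0.

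The diet effect was then compared between the sets, as the effect in set 2 minus that in set 1. None of the 10 members passed, as 0% of all genes did in edgeR's test, with 9.5% of genes (1351) at an unadjusted p under 0.05 and 29 called by DESeq2. Fbln5 had the largest value, -1.07 ± 0.40 (adjusted p = 0.47, the 1 member with an unadjusted p under 0.05), and was at -0.69 ± 0.34 (adjusted p = 0.60) without control 23. Loxl4 followed at 0.92 ± 0.54, and at 0.57 ± 0.43 without control 23. The other 8 members ranged from -0.47 (Loxl3) to 0.28 (Loxl2).

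**Figure D4:**
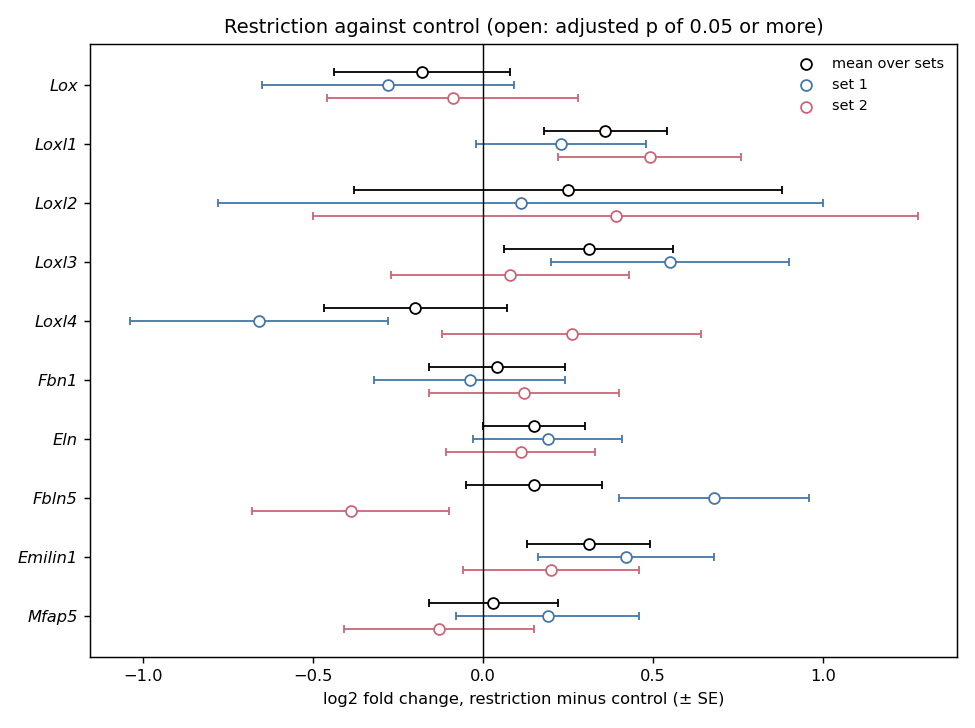
Log2 fold change of restriction minus control for each member (horizontal axis, bars are ± SE), over both sets and in each set. All points are open because every adjusted p was 0.05 or more, and Fbln5 lies at 0.68 in set 1 and -0.39 in set 2.

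No gene of the 6 pathway lists was called for diet either. By smallest p, the partners were Fbln1 (fibulin-1) at 0.67 ± 0.23 (adjusted p = 0.52) and Adamts10 at 0.33 ± 0.14 (adjusted p = 0.61). In lysyl oxidase activation they were the proteinase Bmp1, which cleaves the propeptide of Lox, at 0.47 ± 0.15, and the copper importer Slc31a1 at -0.61 ± 0.20, both at adjusted p = 0.49. In the other lists, genes of smallest p that were also not called were Col11a1 at 0.90 ± 0.50 and Col5a1 at 0.20 ± 0.14, the collagen chaperone Serpinh1 at 0.47 ± 0.15 and Ppib at -0.35 ± 0.15, Mmp14 at -0.59 ± 0.19 and Timp3 at 0.29 ± 0.16, and Tgfbr2 at 0.23 ± 0.12. Col11a1 had few reads, with group means from 0.422 to 1.38 CPM. Tenocyte markers lay above 0 for diet in 9 of 9 cases with a median of 0.85 and 0 called. They summed to between 136 and 211 CPM in controls and between 282 and 428 CPM in restriction libraries of set 2, and to between 141 and 259 and between 192 and 374 CPM in set 1. Fibroblast markers had a median of 0.05 for diet. The part of either cell type in the members' diet values was not tested.

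Members were also compared by how they varied between libraries of the same group, as Pearson's r of log2 CPM after subtracting group means, over 12 libraries that share 1 scaling factor across genes. These values are descriptions. Of 45 pairs, 12 had r above 0.5 and 17 lay below 0. Loxl4 and Emilin1 had the highest value, 0.87 (0.83 without control 23), although Loxl4 fell in set 2 and Emilin1 did not. Loxl1 and Fbn1 were at 0.77 with and without control 23.

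Loxl2 followed Loxl4 at 0.80 and Loxl3 at 0.76, and these were 0.60 and 0.64 without control 23, where Loxl2 had no count. Lox followed Loxl2 at 0.65, which became 0.33 without control 23. Eln, whose level fell with those of Fbn1 and Mfap5 between the sets, was at -0.15 with Fbn1 and -0.47 with Mfap5 within groups, and at 0.53 with Fbln5. Loxl1 was at -0.17 with Lox.

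**Figure D5:**
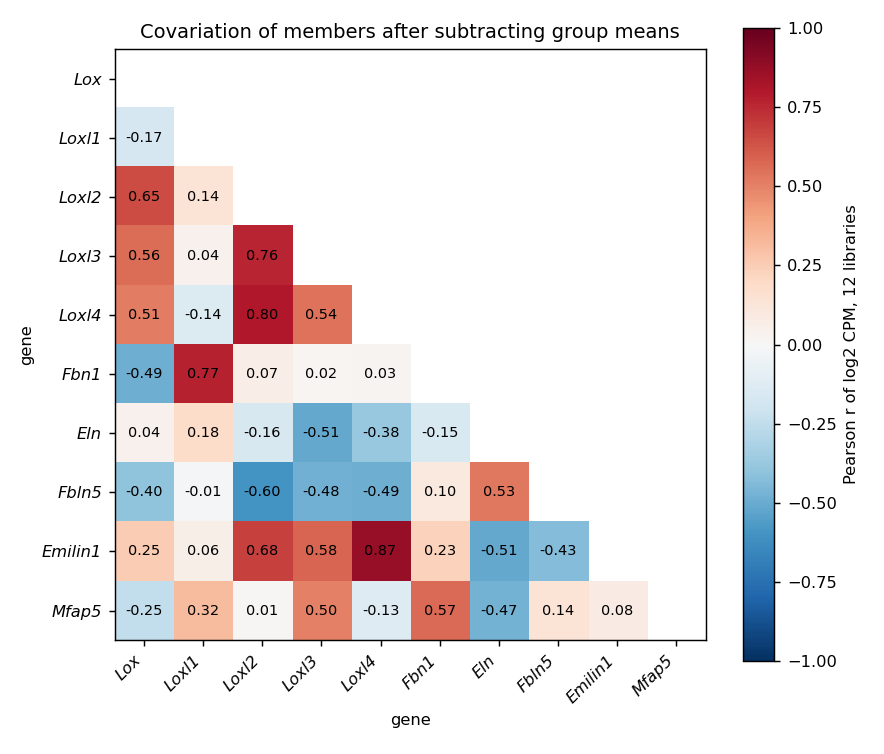
Pearson's r of log2 CPM between members (both axes) over 12 libraries after subtracting the 4 group means. Red cells are pairs that varied together within groups, such as Loxl4 with Emilin1 at 0.87, and blue cells pairs that varied oppositely, such as Eln with Emilin1 at -0.51 (-0.48 without control 23). The lowest value, Loxl2 with Fbln5 at -0.60, was -0.25 without control 23.

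By the same measure, each member was matched with the most similar of 11125 other genes. Each r is thus the highest of many, so a high value can arise without a shared control, and these matches are descriptions only. All 12 libraries were in, among them control 23, which stood apart on the second principal component. Matches without control 23 are not given, and how far they rest on that library was not tested. Within groups, Fbn1 was most like Tmsb10 (r = 0.98), Sfrp4 and the matrix proteoglycan Bgn (both 0.96), and Loxl1 was most like the growth factor Bmp4 and Gstt1 (both 0.94). Eln was most like Sgsh and Dnajc24 (both 0.92), Mfap5 like Mpped2 and Lnp (both 0.96) and Emilin1 like Ulk2 (0.95) and the lysyl hydroxylase Plod3 (0.91). Lox was most like Rcc1, Ptpn12 and Ints6 (each 0.96), Loxl2 like Ly96 (0.97), Loxl3 like Ubr2 (0.96), Loxl4 like Ube2q2 (0.95) and Fbln5 like Erh (0.98). Over all 12 libraries with the set difference kept in, Fbn1 was most like Bgn (0.99), Loxl1 like Kif4a (0.99), Mfap5 like Mpped2 (0.99) and Eln like Tbc1d8 (0.96), with Ctss the third for Eln (0.95).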

How the data were processed

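Per the labels, Trizol was used for extraction and an Illumina TruSeq RNA kit for the libraries. The kit keeps no strand, which leaves antisense reads mixed with those of the gene. The authors deposited raw counts per gene, as whole numbers. The submitters' processing notes name Trimmomatic, HISAT2, featureCounts and DESeq2 and build Rnor_6.0, without versions of the tools. A second deposited table, a rescaled copy of the counts, was left out.

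Genes were filtered with filterByExpr over the 4 groups of 3 libraries and scaled by TMM. All 12 libraries entered 1 fit of the 4 group means in edgeR 4.0.16 (R 4.3.3), tested by quasi-likelihood with Benjamini-Hochberg adjustment over all 14225 genes and a threshold of 0.05. The fit was first run on data simulated with its own estimates of spread, for the set difference over both diets and for diet in each set. Only chosen genes differed between groups in those data, and the other comparisons were not simulated. SE is the log2 fold change divided by the square root of the F statistic, with 95% intervals from it. CPM keeps gene length in it, so levels are compared between libraries and not between genes. Pearson's r used log2 CPM with a prior count of 2 and genes with a mean CPM of at least 1. Alternatives were DESeq2 1.42.0, limma 3.58.1 (voom), other scalings and filters, subsets of the libraries, a replicate block and leaving out each library. Members and lists were chosen with earlier results of these data known. The rule named all members in every comparison, and from each pathway list the 4 called genes with the smallest p between sets and the 2 with the smallest p for diet. For 1 gene of the TGF-beta list the values are not reported here. Pcolce2 and Ccn2 matched no row. Libraries of the same group differed by more than sampling noise in every case (chi-square per degree of freedom of 24.5 or more).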

Additional observations from a re-analysis of the deposited data

How the results depend on the processing

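Loxl2 had the fewest counts (65 or fewer per library) and the largest log2 SE between the sets among members (0.63, and 0.45 without control 23), and the part of depth in that SE was not tested. Of 520 member values under settings other than leaving out a library, 504 kept direction and call, 1 lost and 3 gained a call and 12 changed sign, none of the 12 called in either fit. The cause of these changes was not tested. The lost call was Loxl4 in the controls with only the control libraries (adjusted p = 0.061), and the gained calls were Fbln5 over both diets with DESeq2 (-0.51), limma-voom (-0.59) and library size alone (-0.64).

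Library size alone as scaling turned the split of genes called between the sets from 2832 higher and 2788 lower (49.6% lower) to 2102 higher and 3384 lower (61.7% lower) and moved the median of all genes from -0.01 to -0.11. Under it, set differences changed sign for Emilin1 over both diets (-0.09) and in the controls (-0.01), for Lox (-0.06) and Fbln5 (-0.16) in the controls and for Loxl2 in the restriction groups (-0.03), and Eln did so in the difference between diet effects (0.03). With limma-voom, Fbln5 in the controls was at -0.12 and the diet effects in set 1 of Loxl2 and Fbn1 at -0.14 and 0.02. Without a set term the diet effect of Fbn1 was at -4e-04.

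Leaving out each library changed the sign of 29 member values in at least 1 of 12 fits. For set 2 against set 1 over both diets these ranged from -0.08 to 0.29 (Lox), -0.30 to 0.39 (Loxl2), -0.19 to 0.09 (Loxl3) and -0.09 to 0.10 (Emilin1). In the controls they ranged from -0.39 to 0.37 (Lox), -0.65 to 0.32 (Loxl2), -0.10 to 0.41 (Loxl3), -0.36 to 0.31 (Fbln5) and -0.02 to 0.30 (Emilin1), and in the restriction groups from -0.04 to 0.36 (Lox), -0.37 to 0.98 (Loxl2) and -0.31 to 0.06 (Emilin1). For diet over both sets they ranged from -0.35 to 0.03 (Lox), -0.21 to 0.46 (Loxl2), -0.07 to 0.28 (Fbn1) and -0.08 to 0.19 (Mfap5), and in set 1 from -0.81 to 0.53 (Loxl2) and -0.26 to 0.44 (Fbn1). In set 2 they ranged from -0.43 to 0.34 (Lox), -0.17 to 0.82 (Loxl2), -0.16 to 0.37 (Loxl3), -0.08 to 0.51 (Loxl4), -0.05 to 0.33 (Eln) and -0.35 to 0.09 (Mfap5). For the difference between diet effects they ranged from -0.15 to 0.62 (Lox), -0.02 to 0.45 (Loxl1), -0.28 to 1.20 (Loxl2), -0.31 to 0.38 (Fbn1) and -0.24 to 0.14 (Eln).

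Genes called for diet over both sets, over set 1, over set 2 and for the difference between them numbered 1, 1, 0 and 0. They numbered 46, 35, 39 and 29 with DESeq2 and 11, 6, 3 and 1 without a filter on low counts. Limma-voom called 0 over both sets and 3 in set 1, only the libraries of set 1 gave 5, and no set term gave 0 over both sets. Leaving out 1 library gave 0 to 8, 1 to 22, 0 to 4 and 0 to 1, with the highest of the first 3 without control 23 and that of the fourth without restriction 33. Members called for diet stayed at 0 under every setting run.

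The title numbers (3 with 23, 8 with 28 and so on) were not taken as pairs by the rule used, with 4 of 6 correlations of deviations over 0.1 (0.08 to 0.18). Yet each of the 6 set 1 libraries correlated best with its own number among set 2 libraries of its diet. Whether they mark the same animals was therefore not settled. The main fit and the permutation of ratios did not use the title numbers. With a replicate block on them 5802, 3147 and 4522 genes were called between sets over both diets, in the controls and in the restriction groups, with 5 members in each, and 0 genes for the difference between diet effects. Under this block the differences in the controls of Lox and Fbln5 changed sign to -0.06 each, and no member's call changed. The replicate block as a random effect (correlation 0.13) called 0 genes for diet over both sets.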
